A study of Oryza sativa Japonica Group with 9 samples.

Results

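The kinase edit was set directly against the auxin response factor edit in developing rice grains. The 3 libraries from GSK5-edited caryopses were compared with the 3 libraries from ARF4-edited caryopses, 6 of the 9 libraries of the study. A gene was tested when it reached 1 FPKM (fragments per kilobase of gene model, scaled to the mapped fragments of the library) in at least 3 of these 6 libraries, which left 22697 of 55986 gene models. All plants were of the japonica cultivar Nipponbare, and the tissue was labelled caryopsis, the grain with its fruit coat. The genotype labels were GSK5-/- for one edit and ARF4-/- for the other. The sample labels gave day 9 after flowering, whereas the series text gave 7 to 8 days. The 3 unedited wild-type (WT) libraries, of the same cultivar, tissue and labelled day, stayed out of the fit, and their values stand beside the results. No source used here gives the editing agent, the alleles or how many lines carried each edit. Whether replicates were grown as separate plants is not stated either, and the p-values below therefore rest on library-to-library spread that could be technical.

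GSK5 is a GSK3/SHAGGY-like protein kinase. Kinases of this family restrain brassinosteroid signalling in plants by phosphorylating transcription factors such as BZR1, and the series title describes GSK5 as a negative regulator of grain size. ARF4 is an auxin response factor, one of the proteins that bind the promoters of auxin-responsive genes. Aux/IAA proteins repress these factors until auxin, through receptors such as TIR1, marks the repressors for degradation, and GH3 enzymes lower free auxin by joining it to amino acids. The direct contrast shows which transcripts set the edits apart, in genes of these pathways and in the grain's own programmes of starch, storage protein, light capture and cell division.

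Libraries of both edits were alike in total but not in spread. Summed FPKM lay between 585414 and 601267 in the 6 libraries. Absolute depth is unknown, and the steps of low values put the deepest of the 6 at 1.32 times the depth of the shallowest. The median standard deviation of a gene within its group, on log2(FPKM + 1), was 0.111 in GSK5-edited, 0.24 in ARF4-edited and 0.267 in WT caryopses. Across genes, which are not independent replicates, the GSK5-edited libraries had a mean Pearson r of 0.975 to 0.982 with their own group. ARF4 replicates 2 and 3 had r of 0.855 with each other, and ARF4 replicate 3 had a higher mean r with the GSK5-edited group (0.93) than with its own (0.899). ARF4 replicates 2 and 3 therefore stand apart, and values without one of them stand beside results below. The caryopsis label was checked against tissue markers, and 3 of 5 listed markers of early endosperm, the tissue that fills the grain with starch, reached at most 1.21 FPKM in the 6 libraries. MADS87 was at 0 except for 7.29 FPKM in ARF4 replicate 1, and MADS6, which maternal floral tissue also expresses, had 37.28 to 128.20 FPKM. NF-YB1, a transcription factor of endosperm, reached at most 0.48 FPKM in any of the 6 libraries, and FIE1, an endosperm polycomb gene, at most 0.06. GBSSI, the granule-bound enzyme that makes amylose in endosperm, stood at 4.16, 1.93 and 1.36 FPKM in GSK5 replicates 1 to 3. It stood at 0.66, 1.20 and 0.42 FPKM in ARF4 replicates 1 to 3. MADS-box genes of ovule and maternal tissue were abundant, with summed FPKM of 4 such genes between 483.5 and 604.4 in GSK5-edited and between 344.0 and 504.8 in ARF4-edited libraries.

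The edited genes themselves were examined first. The locus taken as GSK5 (LOC_Os03g62500, whose name is not in the reference table) had 31.10, 33.99 and 31.55 FPKM in the GSK5-edited libraries. In the ARF4-edited libraries it had 34.30, 48.27 and 39.67 FPKM. Every GSK5-edited value lay below every ARF4-edited value, but the log2 difference of -0.32 (95% CI -0.65 to 0.01) did not pass limma's moderated test (adjusted p = 0.283). ARF4 (LOC_Os01g70270) had 75.43, 74.71 and 84.72 FPKM in GSK5-edited against 54.21, 49.52 and 47.61 FPKM in ARF4-edited libraries. WT libraries had 91.82, 92.48 and 67.58 FPKM of ARF4, above every ARF4-edited library. The log2 difference of ARF4 was 0.62 (SE 0.09, CI 0.39 to 0.85), just outside the threshold with limma (adjusted p = 0.0535). It passed with a filter of 5 FPKM (limma, adjusted p = 0.0499) and without ARF4 replicate 2 (0.0318) or ARF4 replicate 3 (0.0343). It was called in no other of the 16 alternative fits, which included other scaling, all 9 libraries and leaving out any other library. An edit can leave the level of its transcript as it was, so these levels check the labels only in part. The other 4 GSK3-like kinases had log2 differences between 0.07 and 0.19, and none was called.

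Across the transcriptome, 152 genes were higher and 59 lower in GSK5-edited than in ARF4-edited caryopses at an adjusted p under 0.05 (limma with Benjamini-Hochberg adjustment). That is 0.93% of the genes tested, 0.67% in the higher and 0.26% in the lower direction. At these shares a short list can hold 0 calls without differing from the other genes, so 0 calls in a list below is description only. At an unadjusted p under the same threshold, 4283 genes passed. The median difference of called genes was 1.33 (log2) in the higher and 1.39 in the lower direction, and 116 and 46 of them differed by at least 1. In all 211 called genes, no value of one edit reached into the range of the other. Groups likewise did not overlap for 18.2% of all tested genes on the higher side and 8.05% on the lower side, 26.3% in all. Of called genes, 72.04% were higher in GSK5-edited caryopses. After median-of-ratios scaling the share was 54.07% (73 higher, 62 lower), and after quantile normalization 55.97% (75 higher, 59 lower). The count turned on single libraries: without GSK5 replicate 1 or 2 it was 0 higher and 3 lower, without GSK5 replicate 3 47 and 12, and without ARF4 replicate 1 0 and 5. It was 1254 higher and 733 lower without ARF4 replicate 2, and 850 and 833 without ARF4 replicate 3, and all 211 genes were among the calls in both of these fits. Both libraries were singled out from these same values. Genes called only when one of them was left out are therefore given as description and not as support for a difference.

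**Figure D1:**
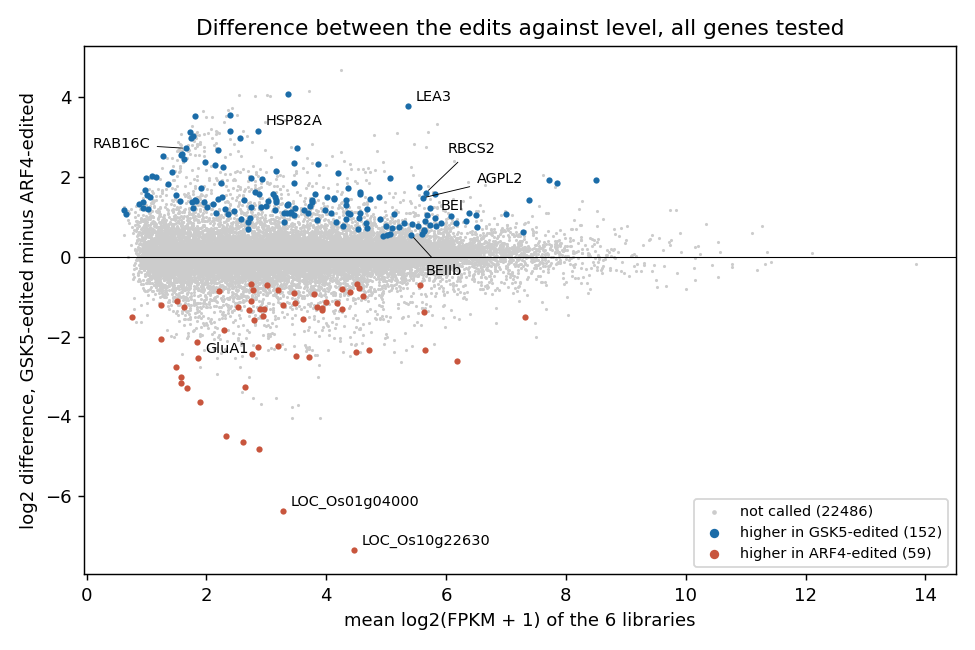
Log2 difference of each tested gene (GSK5-edited minus ARF4-edited, vertical axis) against its mean log2(FPKM + 1) in the 6 libraries (horizontal axis), with 152 called genes higher in GSK5-edited in blue, 59 higher in ARF4-edited in red and 22486 not called in grey. A pair of genes, LOC_Os10g22630 and LOC_Os01g04000, stands far below the others, at -7.36 and -6.37.

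Starch synthesis held 3 of the 5 listed genes called higher in GSK5-edited caryopses. ADP-glucose pyrophosphorylase makes the sugar nucleotide that starch synthases add to a growing chain, branching enzymes (BE) add the branch points of amylopectin, and debranching enzymes (ISA) trim them. AGPL2, a large subunit of ADP-glucose pyrophosphorylase (LOC_Os01g44220, name not in the reference table), had 72.30, 74.92 and 96.31 FPKM in GSK5-edited libraries. It had 31.88, 24.03 and 29.38 FPKM in ARF4-edited and 22.51, 25.90 and 26.01 FPKM in WT libraries. All GSK5-edited libraries therefore lay above all 6 others. The mean in GSK5-edited was 2.86 times that in ARF4-edited caryopses, a log2 difference of 1.48 (SE 0.16, limma adjusted p = 0.0319).

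Both branching enzymes of the called set were also higher. BEI (LOC_Os06g51084) had 75.47, 86.44 and 77.52 FPKM in GSK5-edited against 29.99, 29.10 and 43.39 FPKM in ARF4-edited libraries, a log2 difference of 1.22 (SE 0.17, limma adjusted p = 0.047). BEIIb (LOC_Os02g32660, name not in the reference table) had 51.45, 50.21 and 50.49 FPKM against 33.87, 36.16 and 32.94 FPKM, a log2 difference of 0.55 (SE 0.08, limma adjusted p = 0.046). For these 2 genes the groups did not overlap, but WT did not take either side: BEI had 20.73, 57.08 and 89.25 FPKM and BEIIb 30.67, 41.36 and 51.18 FPKM in WT replicates 1, 2 and 3. None of the 3 calls held without GSK5 replicate 1, 2 or 3 or ARF4 replicate 1, where adjusted p (limma) lay between 0.0722 and 0.223. After median-of-ratios scaling, after quantile normalization, with all 9 libraries, with no mean-variance trend or with robust estimation, AGPL2 alone of the 3 was called. With no filter or with a block for replicate number, 0 starch genes were called.

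Of the 28 starch genes tested, 3 were called higher and 0 lower, beside 0.67% and 0.26% of all genes tested, 21 had a difference above 0, and the median was 0.41, beside 0.05 over all genes tested. Groups did not overlap for 13 members on the higher and 3 on the lower side, beside 18.2% and 8.05% of all genes tested. The small subunit AGPS1, the most abundant member, had 377.40, 439.11 and 339.52 FPKM against 169.28, 169.68 and 288.50 FPKM (log2 difference 0.92, CI 0.32 to 1.52, limma adjusted p = 0.135). GPT1, which carries glucose 6-phosphate into plastids, had 138.56, 147.88 and 154.59 FPKM against 99.76, 95.73 and 112.94 FPKM (0.51, CI 0.26 to 0.77, limma adjusted p = 0.0846). BEIIa, the remaining branching enzyme, differed by 0.83 (CI 0.43 to 1.22, limma adjusted p = 0.0785). Starch synthases lay on both sides: SSIIb differed by -0.58 (CI -0.89 to -0.27), SSIIIa by -0.29 and SSIIIb by -0.79 (CI -1.26 to -0.32), while SSI differed by 0.55 (CI 0.06 to 1.05), with none of them called. The fit called 6 starch genes higher and 1 lower without ARF4 replicate 2, and 8 higher and 0 lower without ARF4 replicate 3. Over all 22697 genes these fits called 1254 higher and 733 lower, and 850 higher and 833 lower. GPT1 was called in both fits, SSIIIb in the first, and AGPS1, BEIIa and SSI in the second. Of the 4 maternal MADS-box markers 0 were called. MADS13, an ovule identity gene, had 162.43, 203.54 and 187.56 FPKM in GSK5-edited and 122.39, 130.92 and 153.52 FPKM in ARF4-edited libraries (0.44, CI 0.11 to 0.78, not called), and all 4 had differences above 0, of which MADS29 turned to -0.21 without ARF4 replicate 2. Their part in the result was not tested. In whole caryopses, fewer cells of a type and less RNA per cell cannot be told apart.

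**Figure D2:**
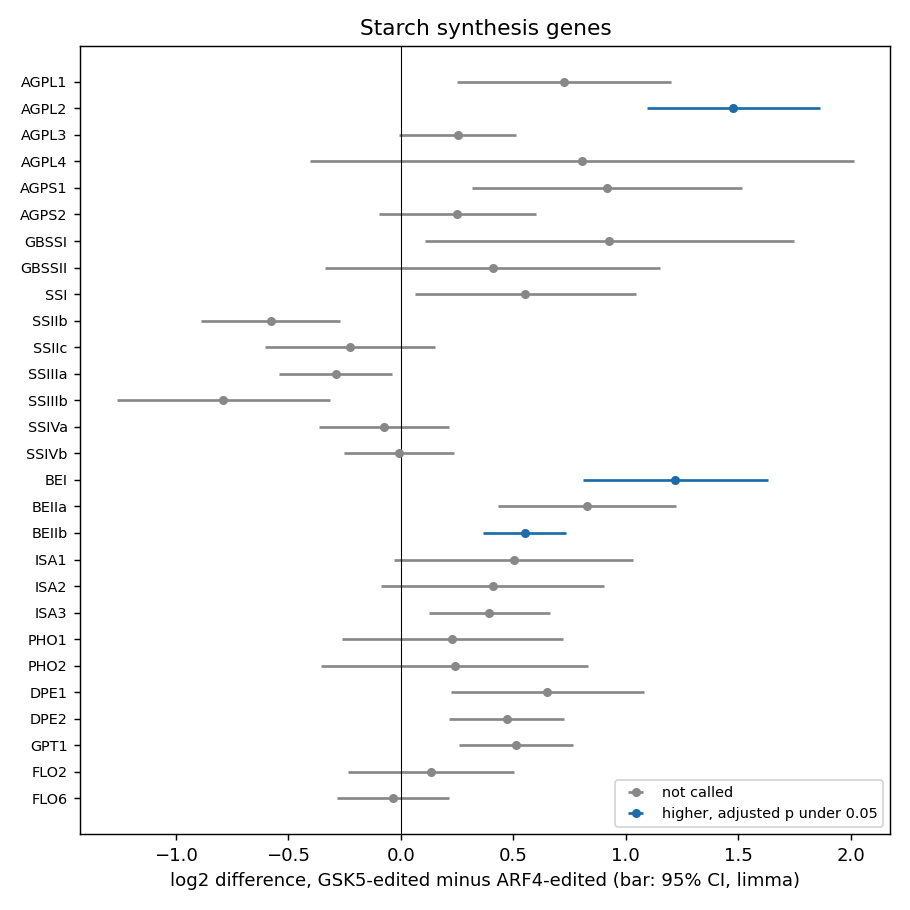
Log2 difference (GSK5-edited minus ARF4-edited, horizontal axis) with its 95% confidence interval for each of the 28 tested starch synthesis genes, from limma. AGPL2, BEI and BEIIb, in blue, were called, and SSIIb, SSIIIa and SSIIIb are the genes whose whole interval lies below 0.

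Of the storage protein genes, 1 was called, and it was lower in GSK5-edited caryopses. Rice stores nitrogen mainly as glutelins, made in the endosperm, and their transcripts were rare in every library. GluA1, a glutelin (LOC_Os01g55690), was the only one of 241 tested list members called lower. It had 0.55, 0.39 and 0.57 FPKM there, 9.61, 4.86 and 9.73 FPKM in ARF4-edited and 0.11, 0.41 and 0.46 FPKM in WT libraries. The ARF4-edited libraries thus stood apart from all others, with a log2 difference of -2.54 (SE 0.26, limma adjusted p = 0.0317). Since only these libraries reached 1 FPKM, GluA1 passed the filter through them alone and could only come out lower in GSK5-edited caryopses. The call did not hold without GSK5 replicate 1, 2 or 3 or ARF4 replicate 1, with adjusted p (limma) between 0.108 and 0.164.

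Of 13 storage protein genes in the table, 3 passed the filter, and in 11 of the 13 every ARF4-edited value lay above every GSK5-edited value. None lay the other way. Over the whole table, genes under the filter included, the former held for 2412 of 55986 gene models. The summed FPKM of the 13 genes was 5.7, 4.69 and 4.3 in GSK5-edited, 17.82, 16.27 and 21.55 in ARF4-edited and 3.14, 4.23 and 5.07 in WT libraries. GluA1 supplied a large part of that sum, and 7 further glutelins whose groups did not overlap reached at most 0.72 FPKM in any library. GluA2, the most abundant glutelin in GSK5-edited caryopses, overlapped between the edits (3.57, 3.43 and 3.28 against 4.71, 4.80 and 3.33 FPKM). Glutelin genes are close copies of each other, so the authors' mapping could have split or shared their reads.

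Both listed regulators of storage protein genes were on the same side. RISBZ1, a bZIP factor that activates glutelin promoters (LOC_Os07g08420, name not in the reference table), had 3.86, 3.70 and 4.32 FPKM in GSK5-edited and 10.04, 6.80 and 11.58 FPKM in ARF4-edited libraries. Its groups did not overlap, and its log2 difference was -1.05 (CI -1.53 to -0.57, limma adjusted p = 0.0739). RPBF, a Dof factor that acts with it (LOC_Os02g15350, name not in the reference table), had 0.68, 0.36 and 0.48 FPKM against 2.44, 1.43 and 2.58 FPKM, and 0.00, 0.00 and 0.08 FPKM in WT. Its log2 difference was -1.05 (CI -1.55 to -0.55, limma adjusted p = 0.0791). RPBF too reached 1 FPKM in the ARF4-edited libraries alone, so the filter fixed its direction. Both were called without ARF4 replicate 2 (limma, adjusted p = 0.0142 for RISBZ1 and 0.0231 for RPBF). Chaperones and folding enzymes of the endoplasmic reticulum, through which storage proteins pass, had 0 of 8 members called and a median of -0.19. BiP1, the chaperone of that compartment, had 59.93, 63.45 and 64.66 FPKM against 85.29, 91.55 and 75.23 FPKM (-0.41, CI -0.66 to -0.17, limma adjusted p = 0.116, and 0.0368 without ARF4 replicate 3). PDIL1-1, a disulfide isomerase and the most abundant of the 8, differed by -0.02 (CI -0.31 to 0.26). Of the endosperm markers, NF-YB1 reached 0.28 FPKM in the ARF4-edited libraries.

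A gene of desiccation tolerance had one of the largest called differences in favour of GSK5-edited caryopses. LEA3 (LOC_Os05g46480), a late embryogenesis abundant protein that protects cells during drying, had 149.61, 174.13 and 135.64 FPKM in GSK5-edited libraries. It had 8.05, 4.97 and 24.54 FPKM in ARF4-edited and 17.17, 6.70 and 46.21 FPKM in WT libraries, so each GSK5-edited library lay above the 6 others. The mean ratio between the edits was 12.2 and the log2 difference 3.78 (SE 0.52, limma adjusted p = 0.0466). The 4 RAB16 genes, dehydrins induced by abscisic acid and drying, were looked up after this value was seen and are given as a description. RAB16C had 10.63, 7.25 and 4.62 FPKM in GSK5-edited and 0.00, 0.15 and 0.63 FPKM in ARF4-edited libraries, with 0.54, 0.51 and 3.55 FPKM in WT. It passed the filter through the GSK5-edited libraries alone. RAB16A had 28.28, 9.61 and 7.14 FPKM against 2.09, 1.30 and 5.69 FPKM, and WT, at 29.81, 16.86 and 8.05 FPKM, was on the GSK5-edited side. RAB16B overlapped between the edits, and RAB16D stayed under 1 FPKM everywhere. The LEA3 call did not hold without GSK5 replicate 1, 2 or 3 or ARF4 replicate 1, with adjusted p (limma) between 0.149 and 0.207, and was lost at 0.0603 after median-of-ratios scaling and 0.0547 after quantile normalization. RAB16 genes lie in tandem and are similar in sequence, so reads may have been split among them.

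**Figure D3:**
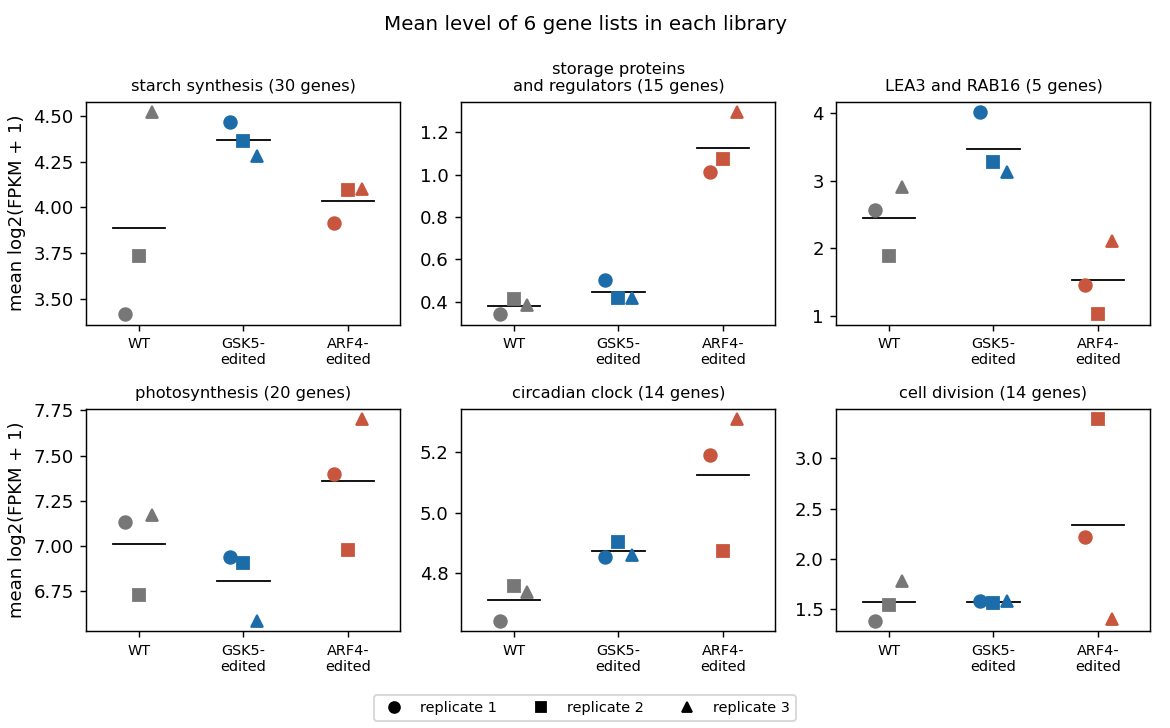
Mean log2(FPKM + 1) over all genes of 6 lists in each of the 9 libraries (symbols by replicate number) with the group mean as a bar; vertical axes differ between panels and do not start at 0. Starch synthesis, storage proteins and LEA3 with RAB16 separate the edits in all libraries, the last being a list drawn up after the LEA3 value was seen. Photosynthesis genes also separate, by a small margin in ARF4 replicate 2. Like clock and cell division genes, they differ among the ARF4-edited libraries.

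Light-harvesting genes were highest in 2 of the ARF4-edited libraries. These genes encode the antenna proteins of green tissue, which in the caryopsis is the pericarp layer. Summed FPKM of 10 light-harvesting genes was 1537, 1592 and 1294 in GSK5-edited libraries. It was 3113, 1700 and 4565 in ARF4-edited libraries and 1833, 1219 and 1724 in WT, so ARF4 replicates 1 and 3 stood apart while ARF4 replicate 2 lay near the other groups. CAB2R, the most abundant of these genes, had 563.11, 589.25 and 541.61 FPKM against 975.43, 598.78 and 1504.28 FPKM (log2 difference -0.76, CI -1.62 to 0.09). LHCB2 had 64.55, 74.21 and 53.27 FPKM against 226.96, 103.30 and 356.26 FPKM (-1.66, CI -2.75 to -0.58). Neither was called with limma (adjusted p = 0.314 and 0.134), but without ARF4 replicate 2 both were (0.0439 and 0.0166).

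Of the 19 photosynthesis genes tested, 1 was called higher and 0 lower, beside 0.67% and 0.26% of all genes tested, and 16 had a difference below 0. Groups did not overlap for 12 on the lower and 2 on the higher side, beside 8.05% and 18.2% of all genes tested. The median was -0.65. Without ARF4 replicate 2 the median was -0.88 and 10 genes, all of them light-harvesting genes, were called lower, beside 733 of all 22697 genes. Without ARF4 replicate 3 the median was -0.44 with 1 called lower, beside 833 of all 22697 genes. Among the 19 genes, ARF4 replicate 3 was the highest ARF4-edited library for 16 and replicate 2 the lowest for 14. Over all tested genes those shares were 30.2% and 30.4%. Genes of carbon fixation did not move as one. RBCS2, a small subunit of Rubisco (LOC_Os12g17600), was higher in GSK5-edited caryopses, with 90.75, 97.06 and 75.71 FPKM against 19.57, 33.28 and 33.70 FPKM (1.61, SE 0.23, limma adjusted p = 0.0476). WT, at 144.63, 55.84 and 133.94 FPKM, lay above every ARF4-edited library. RBCS3, the most abundant small-subunit gene, differed by 0.30 (CI -0.18 to 0.78) and was not called. The RBCS2 call did not hold without GSK5 replicate 1, 2 or 3 or ARF4 replicate 1 (limma, adjusted p between 0.105 and 0.218) or after either rescaling (0.0616 and 0.0547), and these genes are near-identical copies whose reads may be shared. RCA, which keeps Rubisco active, had 129.97, 105.18 and 91.15 FPKM against 208.86, 183.04 and 165.92 FPKM, a log2 difference of -0.78 (CI -1.18 to -0.38, limma adjusted p = 0.0916, and 0.0496 without ARF4 replicate 3).

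Clock genes followed the same pair of ARF4-edited libraries. LHY, a morning-expressed clock repressor, had 9.21, 13.64 and 8.16 FPKM in GSK5-edited and 32.62, 14.26 and 42.00 FPKM in ARF4-edited libraries (log2 difference -1.34, CI -2.34 to -0.34). PRR95, a pseudo-response regulator of the clock, had 13.99, 18.21 and 17.66 FPKM against 55.43, 28.02 and 81.21 FPKM (-1.55, CI -2.47 to -0.63). LUX, an evening-complex gene entered as LOC_Os01g74020 (name not in the reference table), ran opposite, with 21.26, 19.13 and 19.11 FPKM against 7.13, 15.39 and 4.26 FPKM (1.23, CI 0.26 to 2.20). For all 3 genes ARF4 replicate 2 was the ARF4-edited library nearest to the GSK5-edited group. Of 14 clock genes tested, 0 were called with all 6 libraries, beside 0.93% of all genes tested, and the median was -0.13. Without ARF4 replicate 2 the fit called 5 lower and 1 higher, among them LHY (limma, adjusted p = 0.0222), PRR95 (0.0147) and LUX (0.0187). Of all 22697 genes, that fit called 733 lower and 1254 higher. GI, the most abundant clock gene listed, had 379.88, 377.60 and 373.88 FPKM against 354.88, 299.00 and 373.67 FPKM (0.14, CI -0.19 to 0.48).

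Heat shock genes had differences of both signs, 7 above 0 and 6 below among 13 tested. Groups did not overlap for 4 on the higher and 0 on the lower side, beside 18.2% and 8.05% of all genes tested. HSP82A, a cytosolic HSP90 chaperone (LOC_Os04g01740, name not in the reference table), was higher in GSK5-edited caryopses. It had 12.81, 21.52 and 32.56 FPKM there, 1.28, 0.84 and 2.46 FPKM in ARF4-edited and 1.11, 2.79 and 3.38 FPKM in WT libraries, so the GSK5-edited libraries stood apart from the 6 others. The log2 difference was 3.16 (SE 0.38, limma adjusted p = 0.0397), and the call did not hold without GSK5 replicate 1, 2 or 3 or ARF4 replicate 1 (limma, adjusted p between 0.109 and 0.192). HSP18, a small heat shock protein (LOC_Os03g16030, name not in the reference table), had 7.45, 13.60 and 16.25 FPKM against 2.68, 2.48 and 3.53 FPKM (1.73, CI 1.03 to 2.43, limma adjusted p = 0.0592, and 0.0438 without ARF4 replicate 2). HSP24.1, an organellar small heat shock protein, showed the pattern of the antenna genes. It had 1.70, 1.95 and 3.89 FPKM in GSK5-edited and 20.11, 1.07 and 29.56 FPKM in ARF4-edited libraries (-1.70, CI -4.18 to 0.78). It was called without ARF4 replicate 2 (limma, adjusted p = 0.0158). HSP81-2, another HSP90 chaperone and the most abundant member, had 285.38, 194.20 and 255.08 FPKM against 475.47, 234.44 and 491.82 FPKM (-0.65, CI -1.45 to 0.15), and it too was called without ARF4 replicate 2 (limma, adjusted p = 0.0388). Of 13 heat shock genes tested, 1 was called higher and 0 lower, beside 0.67% and 0.26% of all genes tested, with a median of 0.07. Without ARF4 replicate 2 the counts were 2 higher and 5 lower, beside 1254 and 733 of all 22697 genes, and the median turned to -0.05. ARF4 replicate 3 was the highest ARF4-edited library for 12 of 14 heat shock genes and replicate 2 the lowest for 12. Over all tested genes those shares were 30.2% and 30.4%.

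Cell division genes marked ARF4 replicates 1 and 2 instead. CYCB1-1, a mitotic cyclin, had 0.20, 0.19 and 0.75 FPKM in GSK5-edited and 2.82, 8.58 and 0.09 FPKM in ARF4-edited libraries. MCM3, a subunit of the replicative helicase, had 0.27, 0.39 and 0.14 FPKM against 1.35, 5.76 and 0.11 FPKM. CDKB2, a mitotic cyclin-dependent kinase, had 0.78, 0.88 and 1.21 FPKM against 3.37, 14.69 and 0.57 FPKM. In all 3 genes ARF4 replicate 3 lay below every GSK5-edited library, so the groups overlapped. All 14 listed genes reached 1 FPKM in ARF4 replicates 1 and 2, against 5 in ARF4 replicate 3 and 5 to 6 in each GSK5-edited and WT library. ARF4 replicate 2 was the highest ARF4-edited library for 13 of the 14 genes and replicate 3 the lowest for 13. Over all tested genes those shares were 52.9% and 47.6%. The mean log2(FPKM + 1) of the 14 genes was 2.22, 3.39 and 1.40 in ARF4 replicates 1 to 3 and 1.56 to 1.59 in the GSK5-edited libraries. Only 6 members passed the filter, 0 were called, and the median of -0.37 turned to 0.02 without ARF4 replicate 2 and was -0.63 without ARF4 replicate 3. KRP1, an inhibitor of cyclin-dependent kinases and the most abundant member, had 66.91, 73.10 and 66.23 FPKM against 45.15, 55.21 and 78.02 FPKM (0.24, CI -0.25 to 0.73).

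**Figure D4:**
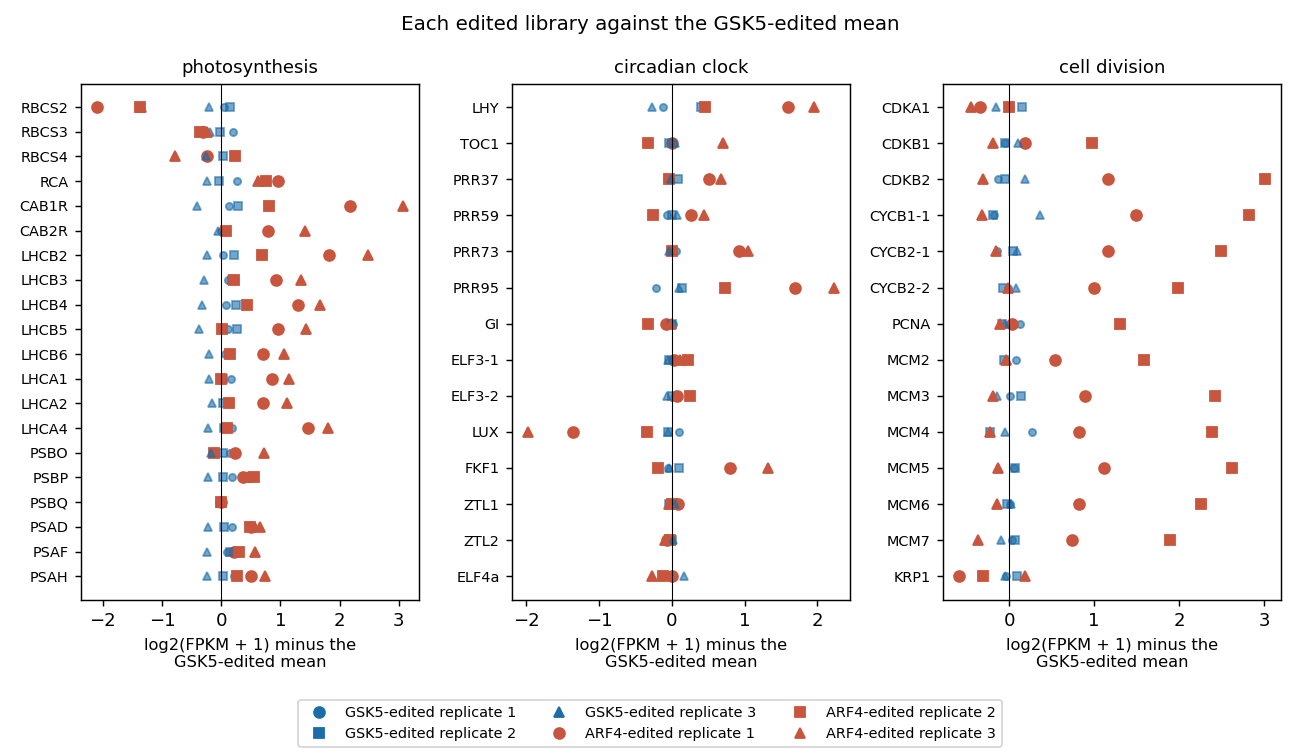
Log2(FPKM + 1) of each GSK5-edited library (blue) and ARF4-edited library (red, symbols by replicate number) minus the GSK5-edited mean, for the genes of 3 lists. The blue points stay close to 0, the antenna genes, LHY, PRR95 and LUX lie farthest from 0 in ARF4 replicates 1 and 3, and the cyclin and MCM genes in ARF4 replicates 1 and 2.

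Grain size genes gave 0 calls among 20 tested, beside 0.93% of all genes tested, with a median of 0.09. Of the 20, 12 had a difference above 0 and 8 below. Groups did not overlap for 4 on the higher and 3 on the lower side, beside 18.2% and 8.05% of all genes tested. Of the members, SPL13, GL7, DEP1 and GW5 were higher in ARF4 replicates 1 and 2 than in any GSK5-edited library. SPL13, a transcription factor that promotes grain length, had 4.87, 4.58 and 3.85 FPKM in GSK5-edited and 18.47, 39.06 and 3.83 FPKM in ARF4-edited libraries (log2 difference -1.52, CI -3.32 to 0.28). GL7, a regulator of cell elongation in the grain (LOC_Os07g41200, name not in the reference table), had 4.27, 5.65 and 5.74 FPKM against 17.54, 24.94 and 8.83 FPKM, with no overlap (-1.44, CI -2.31 to -0.57, limma adjusted p = 0.119). DEP1, a G-protein gamma subunit, was at or under 0.07 FPKM in every library but ARF4 replicate 1 (1.06 FPKM) and ARF4 replicate 2 (3.29 FPKM). GW5, a brassinosteroid-linked regulator of grain width, was at 0 in every library but the same ones, with 0.26 and 0.76 FPKM. Without ARF4 replicate 3 the fit called SPL13 (limma, adjusted p = 0.0191) and GL7 (0.0126) lower in GSK5-edited caryopses and GS5 (0.0439) higher. Of all 22697 genes, that fit called 833 lower and 850 higher. SRS5, an alpha-tubulin that affects grain length and the most abundant member (LOC_Os11g14220, name not in the reference table), had 926.61, 930.32 and 944.96 FPKM against 1524.20, 1397.11 and 1256.40 FPKM. Its groups did not overlap, and its log2 difference was -0.57 (CI -1.09 to -0.06, limma adjusted p = 0.224).

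Brassinosteroid genes, the pathway in which GSK3-like kinases act, gave 0 calls among 12 tested, beside 0.93% of all genes tested, and a median of -0.16. BRI1, the brassinosteroid receptor, had 18.81, 20.42 and 20.25 FPKM in GSK5-edited and 24.74, 23.92 and 25.13 FPKM in ARF4-edited libraries (log2 difference -0.30, CI -0.49 to -0.11, limma adjusted p = 0.132). BZR1, the transcription factor that GSK3-like kinases restrain, had 20.97, 21.97 and 25.24 FPKM against 29.07, 42.51 and 36.18 FPKM (-0.63, CI -1.01 to -0.24, limma adjusted p = 0.12). In both genes the groups did not overlap. Over the 12 genes this held for 2 on the lower and 4 on the higher side, beside 8.05% and 18.2% of all genes tested. BRD1, a brassinosteroid C-6 oxidase of hormone synthesis and the most abundant member (LOC_Os03g40540, name not in the reference table), had 474.92, 555.21 and 461.12 FPKM against 204.61, 110.15 and 296.44 FPKM. WT had 250.37, 382.36 and 330.45 FPKM of BRD1, so each GSK5-edited library lay above the 6 others. Its log2 difference was 1.39 (CI 0.51 to 2.27, limma adjusted p = 0.13), and it was called without ARF4 replicate 2 (0.0421) or ARF4 replicate 3 (0.0317). The median of the 12 genes turned to 0.14 without ARF4 replicate 2.

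Auxin genes also gave no call, beside 0.93% of all genes tested, and with lists this short that does not show an unaltered pathway. Beside ARF4 itself (adjusted p = 0.0535 with limma, above), GH3 genes came close to the threshold. GH3.2 had 26.50, 18.97 and 23.02 FPKM in GSK5-edited and 10.22, 7.17 and 10.75 FPKM in ARF4-edited libraries, with 70.49, 19.65 and 20.90 FPKM in WT. The log2 difference was 1.20 (CI 0.74 to 1.66, limma adjusted p = 0.0555). GH3.5 had 29.94, 32.29 and 33.51 FPKM against 10.15, 15.08 and 6.34 FPKM (1.58, CI 0.91 to 2.26, limma adjusted p = 0.0646), and GH3.8 differed by 1.20 (CI 0.65 to 1.75, limma adjusted p = 0.0743). Groups did not overlap in these 3 genes, and each was called without ARF4 replicate 2 (limma, adjusted p = 0.0251, 0.0147 and 0.029) and without ARF4 replicate 3 (0.0264, 0.0191 and 0.0468). GH3.4 ran opposite, with 1.00, 0.80 and 0.84 FPKM against 11.39, 14.18 and 1.14 FPKM (-1.98, CI -3.78 to -0.17), and it was called without ARF4 replicate 3 (limma, adjusted p = 0.00229). Over the 6 GH3 genes tested the median was 0.75.

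Among 23 tested Aux/IAA repressors, 0 were called, beside 0.93% of all genes tested. Their median was -0.07, turning to 0.26 without ARF4 replicate 2. IAA17, the most abundant, had 210.44, 244.69 and 214.81 FPKM against 221.07, 412.95 and 156.10 FPKM (-0.12, CI -0.98 to 0.73). IAA23 (LOC_Os06g39590) had 3.99, 5.44 and 5.18 FPKM against 7.97, 10.47 and 10.44 FPKM, with no overlap (-0.86, CI -1.25 to -0.46, limma adjusted p = 0.0746). Among 23 tested auxin response factors 0 were called, 17 had differences below 0 and the median of -0.18 turned to 0.07 without ARF4 replicate 2. That replicate was the highest ARF4-edited library for 20 of 25 such genes, and for 52.9% of all genes tested. ARF5 had 6.93, 5.32 and 7.91 FPKM against 17.24, 12.10 and 11.49 FPKM (-0.91, CI -1.41 to -0.42, limma adjusted p = 0.099). The receptor TIR1 (LOC_Os05g05800, name not in the reference table) had 48.06, 50.80 and 48.24 FPKM against 49.31, 54.97 and 46.96 FPKM, and the interval of its difference, -0.25 to 0.18, holds 0. AFB2, its relative and the most abundant of 6 tested genes of auxin synthesis, transport and perception, differed by -0.35 (CI -0.97 to 0.27). Of these 6 genes 0 were called, and their median of -0.14 turned to 0.24 without ARF4 replicate 2.

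Type-A response regulators, which are induced by cytokinin and dampen its signal, gave 0 calls among 8 tested, beside 0.93% of all genes tested. Their median was -0.09, which turned to 0.01 without ARF4 replicate 2. RR2, the most abundant, differed by 0.07 (CI -0.33 to 0.47). RR6 had 6.44, 6.79 and 7.53 FPKM in GSK5-edited and 16.28, 12.53 and 10.89 FPKM in ARF4-edited libraries, with no overlap (-0.83, CI -1.22 to -0.44, limma adjusted p = 0.0774, and 0.0273 without ARF4 replicate 3).

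Sugar supply genes gave 0 calls among 15 tested, beside 0.93% of all genes tested, with a median of 0.39. SWEET11, a sucrose exporter that feeds the grain and the most abundant member, had 1280.51, 1473.39 and 1370.26 FPKM in GSK5-edited and 1006.05, 169.28 and 1333.99 FPKM in ARF4-edited libraries (log2 difference 1.17, CI -0.73 to 3.07). The low value lay in ARF4 replicate 2, and without it the difference was 0.24. SWEET15, which acts with it, had 275.31, 260.42 and 338.06 FPKM against 138.18, 50.18 and 244.50 FPKM, again lowest in ARF4 replicate 2 (1.27, CI -0.08 to 2.62, and 0.65 without that library). SUS1, a sucrose synthase, had 44.14, 42.79 and 40.61 FPKM against 203.67, 234.81 and 41.67 FPKM, the pattern of the cell division genes (-1.55, CI -3.13 to 0.03). Without ARF4 replicate 3 SUS1 was called lower in GSK5-edited caryopses (limma, adjusted p = 0.00118), and the median of the 15 genes turned to -0.0052.

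Expansins, which loosen cell walls, gave 0 calls among 11 tested, beside 0.93% of all genes tested. Their median was 0.26, and -0.0039 without ARF4 replicate 3. EXPB3, the most abundant, had 1069.07, 1576.48 and 1237.88 FPKM against 524.28, 372.82 and 927.80 FPKM, with no overlap (1.17, CI 0.25 to 2.10, limma adjusted p = 0.182, and 0.0384 without ARF4 replicate 3). WT spread over more than that range for EXPB3, at 111.27, 489.61 and 1873.13 FPKM. Defence genes gave 0 calls among 6 tested, and PBZ1, a pathogenesis-related protein and the most abundant, differed by -0.04 (CI -0.58 to 0.50). None of the 4 alpha-amylases, enzymes of starch breakdown, passed the filter.

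Other tissue markers gave no call either. Of 4 embryo markers tested the most abundant was OSH1, a homeobox gene of the shoot meristem, which differed by -0.01 (CI -0.96 to 0.93), and NF-YB7 was at 0 in every library. Of 4 tested lipid transfer proteins, abundant in surface layers of the grain, LTP1b was the highest (LOC_Os12g02310, name not in the reference table) and differed by 0.25 (CI -0.43 to 0.93). MADS6, the 1 early endosperm gene on the list that passed the filter, had 42.49, 46.69 and 48.67 FPKM against 61.28, 128.20 and 37.28 FPKM (-0.53, CI -1.56 to 0.51). Over all 24 lists, 6 of 241 tested genes were called, 5 higher and 1 lower, beside 0.93% of all genes. Of the 241, 47 were called without ARF4 replicate 2, where 1987 of all 22697 genes were, and 36 without ARF4 replicate 3, where 1683 were.

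The widest called contrasts lay in genes that the files do not name. LOC_Os10g22630 had 0.85, 0.48 and 0.88 FPKM in GSK5-edited, 232.17, 358.73 and 271.04 FPKM in ARF4-edited and 913.95, 670.76 and 384.41 FPKM in WT libraries. The GSK5-edited libraries alone were low, with a log2 difference of -7.36 (SE 0.19, limma adjusted p = 0.000378). LOC_Os01g04000 had 0.10, 0.00 and 0.12 FPKM in GSK5-edited, 83.65, 114.41 and 70.64 FPKM in ARF4-edited and 0.08, 0.00 and 0.00 FPKM in WT libraries. Here the ARF4-edited libraries alone were high (-6.37, SE 0.19, limma adjusted p = 0.000474). Both genes were called in all 16 alternative fits, and both passed the filter through the ARF4-edited libraries alone. On the higher side LOC_Os06g46740 had 43.66, 45.15 and 36.11 FPKM in GSK5-edited, 0.85, 0.44 and 4.80 FPKM in ARF4-edited and 24.84, 20.25 and 9.89 FPKM in WT libraries (4.09, SE 0.52, limma adjusted p = 0.0422). That call did not hold without GSK5 replicate 1, 2 or 3 or ARF4 replicate 1 (limma, adjusted p between 0.138 and 0.192).

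Genes that were on in one edit and off in the other were few. With on set at 5 FPKM or more in all 3 libraries and off at under 0.5 FPKM in all 3, 5 genes were on in GSK5-edited and off in ARF4-edited caryopses, and 7 the reverse. All 12 were called, and each passed the filter only through the edit in which it was on. WT was off in all 3 libraries for 3 of the 5 and for 6 of the 7. A pair of the 7 have neighbouring locus numbers on chromosome 4, with 30.56, 42.96 and 42.36 FPKM for one and 10.48, 17.09 and 9.78 FPKM for the other in the ARF4-edited libraries. When 2 of 3 libraries sufficed, the counts were 99 and 73. Single libraries differed widely in how many genes reached 5 FPKM there while staying under 0.5 FPKM in the whole of the other edit: 117, 46 and 10 in GSK5 replicates 1 to 3 and 69, 112 and 16 in ARF4 replicates 1 to 3.

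WT values, which took no part in the calls, were placed against both edits for each called gene. Of the 152 genes higher in GSK5-edited caryopses, the WT mean lay nearer the ARF4-edited mean for 51 and beyond it for 23. It lay about midway between the edits for 42, nearer the GSK5-edited mean for 18 and beyond it for 18. Every WT library was below every GSK5-edited library for 78 of the 152 genes, and every WT library was above every ARF4-edited library for 55. Of the 59 genes lower in GSK5-edited caryopses, the WT mean lay beyond the GSK5-edited mean for 23 and nearer to it for 7. It lay about midway for 16, nearer the ARF4-edited mean for 6 and beyond it for 7. Every WT library was below every ARF4-edited library for 42 of these 59, and every WT library was above every GSK5-edited library for 25. After quantile normalization, with 75 genes higher, the counts from beyond the ARF4-edited to beyond the GSK5-edited mean were 8, 21, 27, 11 and 8. No test was made of these counts. The same counts over all genes tested are not given here, so they do not show an excess among the called genes.

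**Figure D5:**
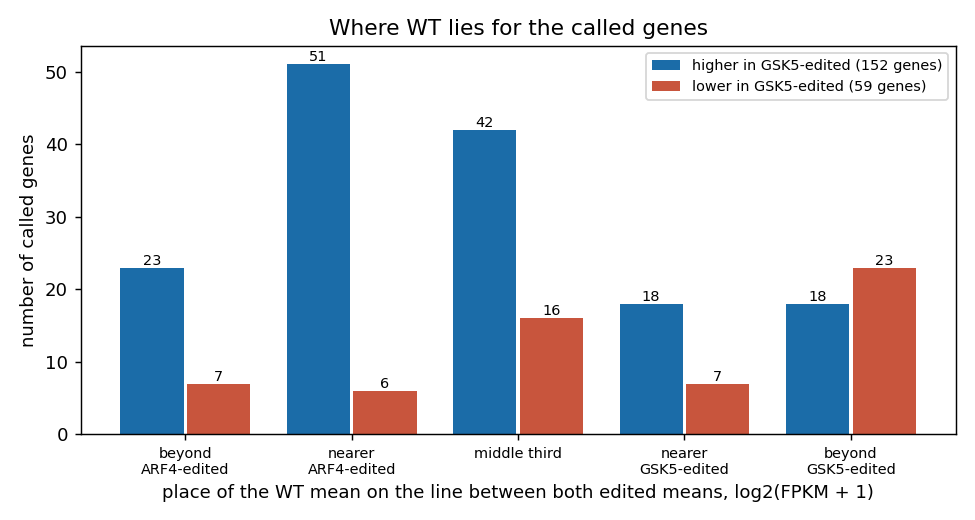
Number of called genes (vertical axis) by the place of the WT mean on the line between both edited means, from beyond ARF4-edited at the left to beyond GSK5-edited at the right, for 152 genes higher (blue) and 59 lower (red) in GSK5-edited caryopses. The highest blue bar, 51, stands at nearer ARF4-edited and the highest red bar, 23, at beyond GSK5-edited.

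Called genes were spread over all 12 chromosomes. The share of tested genes called ran from 0.479% on chromosome 3, which carries the GSK5 locus, to 1.54% on chromosome 9, and it was 1.19% on chromosome 1, which carries ARF4. In 231 blocks of 100 tested genes in locus order, 97 held no call, and the fullest 3 blocks held 4 calls each.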

How the data were processed

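RNA from caryopses of 3 genotypes was sequenced, per the labels' protocols after Trizol extraction and Illumina TruSeq library preparation. The authors deposited FPKM to 2 decimals for 55986 rice gene models. Bowtie 0.12.2 and the build mm8 stand in the submitters' processing notes, but mm8 is of mouse, and which rice build or quantifier made the table is not given here. No count model was fitted to FPKM. Low genes' fold changes are understated by log2(FPKM + 1).

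Groups came from the sample titles. GSK5 was compared with ARF4 by limma 3.58.1 (R 4.3.3, mean-variance trend, not robust) on log2(FPKM + 1) over the 6 libraries. Genes had at least 1 FPKM in at least 3 of them. Tests were two-sided, Benjamini-Hochberg adjusted over 22697 genes, and called at adjusted p under 0.05. The fit was tested on simulated data. Intervals are 95% limma intervals. With 3 against 3, an exact permutation test of one gene cannot go below p = 0.1, so calls rest on the spread limma shares across genes.

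The comparison, its 24 gene lists and the rules were chosen with earlier results of these data known. Each locus was paired with its symbol from memory. The table holds 308 of the 312 listed loci, and 241 were tested. In the RefSeq gene table (assembly ASM3414082v1), used for names alone, 191 symbols matched at a like place, 5 (GSK1, MPK6, GluC, GLB1 and CAB1R) stood at another place and 116 were not found. Named genes are the edited genes, every called list member, each list's most abundant tested member, the 2 largest changes in each direction, and list members given for comparison with WT; other list members were named after their values were seen. The groups compared have no batch label. Tables were made with pandas 2.3.3 and numpy 2.4.6 under Python 3.11.15, and plots with matplotlib 3.10.9. The 16 alternatives changed the filter, pseudocount, scaling, libraries, spread model, replicate block or one library at a time. No sequence is shown, since no sequence file was used here.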

Additional observations from a re-analysis of the deposited data

How the results depend on the processing

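Higher and lower calls (152 and 59) fell to 46 and 26 with no filter. Higher calls were 73 under median-of-ratios scaling, 75 under quantile normalization and 77 with all 9 libraries, and other counts under these settings lay within 1.5 times. Leaving out one library gave 0 to 1254 higher and 3 to 833 lower. Of the listed genes, 6 were called, against 0 to 47 without one library. The calls were AGPL2, GluA1 and HSP82A with median-of-ratios scaling, quantile normalization, all 9 libraries, no mean-variance trend or robust estimation. With no filter they were IAA9, GluB1a and GluB1b, none of them among the 6. The named called genes kept their sign in every alternative run. Since their groups did not overlap, that was fixed in advance except where values were rescaled, and it is no support.

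Same-numbered libraries shared only a number: their deviations correlated at -0.06, 0.09 and 0.04, and GSK5 replicates 1, 2 and 3 correlated best with ARF4 replicates 2, 2 and 1. With the replicate block, 0 genes were called higher, 3 lower and 0 of the listed genes. The ARF4 transcript differed by 0.62 and was called only with a filter of 5 FPKM or without ARF4 replicate 2 or 3. It differed by 0.57 to 0.68 without one library. On and off genes numbered 2 (on in GSK5-edited) with limits of 10 and 1 FPKM, and 99 and 73 when 2 of 3 libraries sufficed. After quantile normalization WT positions of higher genes were 8 beyond ARF4-edited, 21 nearer it, 27 intermediate, 11 nearer GSK5-edited and 8 beyond it, and those of lower genes 15 nearer GSK5-edited and 14 beyond it. The cause of these shifts was not tested. Absolute depth is unknown, so no counting interval is given for low FPKM.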
